A study of Mus musculus with 9 samples.

Results

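The genes described here are 8 Eph receptors and ephrins of the intestinal crypt: the receptors Ephb2, Ephb3, Ephb4, Ephb6, Epha1 and Epha2, and the ligands Efnb2 and Efna1. They were chosen by name, with no measured value in the rule, though earlier results of these data were known. They are 8 of the 24505 genes in the deposited transcription table. All H3K27me3 regions that the authors assigned to one of these names were taken as well. The other 14 Eph receptors and ephrins in the table served for comparison. Transcription had been measured by GRO-seq, a run-on assay that labels and sequences nascent RNA in isolated nuclei, in 3 mouse mini-gut cultures from duodenum, with 2 libraries each. The RANKL culture is labelled as M cell, an epithelial cell that takes up antigen from the gut lumen, the ENRI culture as enterocyte, and the WENRC culture as intestinal stem cell. H3K27me3, the repressive histone mark placed by Polycomb complexes, had been measured by ChIP-seq in RANKL, with 2 libraries pooled by the authors, and in WENRC with 1 library. The culture names are not spelled out in the labels and are used as names. RANKL is also the name of the cytokine that drives M cell differentiation. Strain, genotype, sex and age of the mice, and the dose and length of any treatment, are not given in the sources used here. The ENRI and WENRC libraries carry mouse numbers, 1 of each culture from each of 2 mice, whereas the RANKL libraries carry only a replicate number.

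Eph receptors are receptor tyrosine kinases whose ligands, the ephrins, are themselves bound to the membrane of a neighbouring cell, so that contact signals into both cells. EphB receptors bind mainly the transmembrane ephrin-B proteins and EphA receptors mainly the lipid-anchored ephrin-A proteins. In the intestine, EphB2 and EphB3 are known as targets of Wnt and beta-catenin signalling that are high at the crypt base, while ephrin-B ligands are high toward the villus. Their repulsive contact keeps proliferating and differentiated cells apart and holds Paneth cells at the crypt base.

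Values are the deposited log2 values, normalised between libraries by the authors, and a difference is on that log2 scale. The libraries of a culture did not vary alike. Taken over genes, the difference between both libraries of a culture had an SD of 0.220 for RANKL, of 0.421 for WENRC and of 0.699 for ENRI. A gene was tested when at least 2 libraries reached log2 of 10, which left 16563 genes, and a gene was called at a limma FDR under 0.05 (a Benjamini-Hochberg adjusted p over all genes tested). With 2 libraries against 2, an exact two-sided permutation test of a single gene cannot go below p = 0.333, so the calls rest on the spread shared across genes and across the 3 cultures. The p-values measure only the spread between these libraries. As a check of the labels, all 8 M cell markers were called higher in RANKL than in ENRI, where 10.4% of all genes tested were. In WENRC against ENRI, 8 of 9 enterocyte markers were called lower and 5 of 6 stem cell markers higher. Of all genes tested, 9.74% and 4.85% were. The RANKL culture was less clear. There 5 of 9 enterocyte markers were called lower than in ENRI, where 10.5% of all genes tested were. Against WENRC, 4 of 9 were called higher in RANKL and 1 of 6 stem cell markers, Lgr5, lower, where 8.53% and 3.62% of all genes tested were. No read totals of the GRO-seq libraries are given, so their depth is unknown.

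The 4 EphB genes are shown first by the sequence just before their starts. They are printed because 3 of them, Ephb2, Ephb4 and Ephb6, had more H3K27me3 at or close to their starts in RANKL than in WENRC, while Ephb3 had no region that differed between these cultures. The lines give the 250 bases before the RefSeq start, 5′ to 3′ on the gene's strand, in build GRCm38.p6, with the CpG pairs in capitals. They lie at chr4:136836013-136836262 (minus strand) for Ephb2, chr16:21204545-21204794 (plus strand) for Ephb3, chr5:137349859-137350108 (plus strand) for Ephb4 and chr6:41605261-41605510 (plus strand) for Ephb6.
Ephb2: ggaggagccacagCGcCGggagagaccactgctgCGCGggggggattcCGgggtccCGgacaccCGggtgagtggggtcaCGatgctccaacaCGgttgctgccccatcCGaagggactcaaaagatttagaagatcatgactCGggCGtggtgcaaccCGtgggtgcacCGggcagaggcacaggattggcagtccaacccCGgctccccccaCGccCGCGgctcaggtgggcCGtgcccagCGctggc
Ephb3: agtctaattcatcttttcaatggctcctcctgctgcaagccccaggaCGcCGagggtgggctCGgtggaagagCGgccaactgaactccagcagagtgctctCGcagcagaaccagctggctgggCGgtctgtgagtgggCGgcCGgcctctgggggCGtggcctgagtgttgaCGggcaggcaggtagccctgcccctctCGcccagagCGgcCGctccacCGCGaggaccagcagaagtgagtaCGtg
Ephb4: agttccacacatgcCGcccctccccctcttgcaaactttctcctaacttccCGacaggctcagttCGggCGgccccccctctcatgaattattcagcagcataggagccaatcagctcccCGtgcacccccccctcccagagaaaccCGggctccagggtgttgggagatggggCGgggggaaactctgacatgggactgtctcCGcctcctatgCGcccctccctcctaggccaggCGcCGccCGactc
Ephb6: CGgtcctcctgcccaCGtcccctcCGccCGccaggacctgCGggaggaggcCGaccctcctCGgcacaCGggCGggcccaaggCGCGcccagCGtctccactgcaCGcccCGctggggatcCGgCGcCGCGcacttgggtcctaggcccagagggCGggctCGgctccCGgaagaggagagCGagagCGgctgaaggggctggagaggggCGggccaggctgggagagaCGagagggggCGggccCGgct

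Ephb6 had 27 CpG in these 250 bases, Ephb2 20, Ephb3 16 and Ephb4 12. All 8 genes matched the RefSeq promoter table, with 9 windows in all because Efna1 had 2. Over the full 300-base windows (250 before to 50 after the start), CpG counts ran from 10 in Epha2 to 35 in Efnb2, against a median of 7 over 32851 windows of that length. Ephb2 had 24, Ephb3 23, Ephb4 14 and Ephb6 34 CpG in the full window, and each of the Efna1 windows had 20. Of all windows, 80.0% had fewer CpG than Ephb2, 78.5% fewer than Ephb3, 63.7% fewer than Ephb4 and 92.3% fewer than Ephb6. The letters CTTTGAA, then CTTTGAT, then CTTTGTA, then CTTTGTT, which TCF and LEF proteins are known to bind, were searched on both strands. They occurred in 16.9% of all windows and in 1 of the 8 genes, Epha2, where CTTTGAA lay 209 to 203 bases before the start. A match is a description of letters, and these windows were not placed on the mm9 coordinates used below.

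Ephb2 encodes the EphB receptor best known from the crypt base and from crypt stem cells (NM_010142, mm9 chr4:136203456-136391927, minus strand). Its values were 11.82 and 11.90 in RANKL, 11.61 and 10.92 in ENRI, and 12.68 and 12.56 in WENRC. Both WENRC libraries were above both RANKL libraries, and both RANKL libraries were above both ENRI libraries. The mean was 12.62 ± 0.08 in WENRC, 11.86 ± 0.05 in RANKL and 11.27 ± 0.49 in ENRI (SD, n = 2 each). Ephb2 was 1.35 higher in WENRC than in ENRI (SE 0.24, 95% interval 0.75 to 1.95, limma FDR 0.0228), a 2.55-fold difference on this scale. Against RANKL, WENRC differed by more than the libraries overlapped, but the difference was not called: RANKL minus WENRC was -0.76 (SE 0.24, limma FDR 0.102). RANKL minus ENRI was 0.59 (interval -0.01 to 1.19, limma FDR 0.140).

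Ephb3 encodes the receptor that shares the crypt base pattern with EphB2 and is known for placing Paneth cells (NM_010143, mm9 chr16:21204868-21223377, plus strand). Its values were 9.51 and 9.38 in RANKL, 7.94 and 7.17 in ENRI, and 8.93 and 8.90 in WENRC. Here RANKL was the highest culture, with WENRC between and ENRI lowest, and no libraries of different cultures overlapped. The means were 9.44 ± 0.09 in RANKL, 8.92 ± 0.02 in WENRC and 7.55 ± 0.54 in ENRI (SD, n = 2 each). Ephb3 was 1.89 higher in RANKL than in ENRI (SE 0.26, interval 1.26 to 2.52, limma FDR 0.00759), 3.71-fold on this scale. It was 1.36 higher in WENRC than in ENRI (SE 0.26, interval 0.73 to 1.99, limma FDR 0.0248). RANKL minus WENRC was 0.53 (interval -0.10 to 1.16, limma FDR 0.238) and was not called.

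Ephb2 and Ephb3 thus had different orders over the cultures. On values divided by gene length, log2 per kb, Ephb2 minus Ephb3 was -1.03 and -0.83 in the RANKL libraries. The same difference was 0.33 and 0.40 in ENRI and 0.40 and 0.31 in WENRC. Per kb, Ephb3 was above Ephb2 in both RANKL libraries and below it in the 4 others. This contrast between both genes was noticed in the values and carries no test. Paneth cell markers, summed over 6 genes, were at log2 10.9 to 11 in RANKL, 8.77 to 9.80 in ENRI and 9.23 to 9.64 in WENRC. Gene by gene, 2 of the 6 (Lyz1 and Mmp7) had the Ephb3 order of means. Of the others, 3 (Ang4, Defa24 and Itln1) were highest in RANKL and lowest in WENRC, and 1, Pla2g2a, was highest in WENRC. The Ephb3 order of means was also that of 7 of the 8 M cell markers, all but Gp2. The part of these markers in the Ephb3 level was not tested. In these bulk cultures, fewer cells of a type and less RNA per cell cannot be told apart.

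Ephb4 encodes the receptor of ephrin-B2, best known from veins (NM_001159571, mm9 chr5:137791337-137815750, plus strand). Its values were 9.76 and 10.03 in RANKL, 8.73 and 8.84 in ENRI, and 9.78 and 9.68 in WENRC. RANKL and WENRC overlapped, and both ENRI libraries lay below the 4 others. The means were 9.90 ± 0.19, 8.78 ± 0.08 and 9.73 ± 0.08 (SD, n = 2 each) in RANKL, ENRI and WENRC. Ephb4 was 1.11 higher in RANKL than in ENRI (SE 0.15, interval 0.75 to 1.48, limma FDR 0.00738) and 0.95 higher in WENRC than in ENRI (SE 0.15, interval 0.58 to 1.31, limma FDR 0.0170). RANKL minus WENRC was 0.17 (interval -0.20 to 0.53, limma FDR 0.518), and it was -0.018 after quantile normalisation. The summed level of 6 endothelial markers was log2 8.05 to 8.25 in RANKL, 7.51 to 7.65 in ENRI and 7.51 to 7.87 in WENRC, and its part in the Ephb4 level was not tested. In RANKL the largest of these markers was Vwf, at 7.61 and 7.40. Cdh5, Kdr and Tie1 did not reach the level for testing, and their means were highest in ENRI, as was that of Tek. Between RANKL and ENRI, Vwf was 1.23 higher in RANKL (limma FDR 0.0150), Pecam1 was at 0.67 (limma FDR 0.0732) and Tek at -0.63 (limma FDR 0.115).

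Ephb6 encodes an EphB receptor that lacks kinase activity (NM_001146351, mm9 chr6:41555481-41570506, plus strand). It was close to silent in all libraries and did not reach the level for testing, so the counts below are over the 7 other genes. Its values were 2.26 and 2.27 in RANKL, 2.91 and 2.26 in ENRI, and 2.49 and 2.53 in WENRC.

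Of the EphA receptors, Epha1 encodes the founding member of the family, which is found in epithelia (NM_023580, mm9 chr6:42308486-42323267, minus strand). Its values were 9.81 and 10.06 in RANKL, 10.06 and 10.26 in ENRI, and 9.16 and 9.24 in WENRC. WENRC was lowest in both libraries, whereas RANKL and ENRI almost touched. Its means were 9.94 ± 0.17 in RANKL, 10.16 ± 0.14 in ENRI and 9.20 ± 0.06 in WENRC (SD, n = 2 each). Epha1 was 0.96 lower in WENRC than in ENRI (WENRC minus ENRI -0.96, SE 0.15, interval -1.33 to -0.59, limma FDR 0.0170). It was 0.73 higher in RANKL than in WENRC (SE 0.15, limma FDR 0.0319). RANKL minus ENRI was -0.22 (interval -0.59 to 0.15, limma FDR 0.338). Epha1 shares 1727 bp, 11.7% of its length, with Zyx (zyxin, an adhesion protein) and 2598 bp, 17.6%, with 2010310C07Rik, both on the other strand. Zyx was at 9.66 and 9.70 in RANKL, 9.80 and 10.17 in ENRI and 9.04 and 9.19 in WENRC, the same order of cultures as Epha1. How the counting treated strand is not given in the sources used here, so reads of the 3 genes cannot be told apart where they overlap. None of the 7 other genes overlapped a listed gene.

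Epha2 encodes an EphA receptor of epithelia that binds ephrin-A1 (NM_010139, mm9 chr4:140857136-140885299, plus strand). Its values were 10.94 and 10.95 in RANKL, 11.91 and 10.29 in ENRI, and 11.28 and 11.65 in WENRC. The ENRI libraries stood on both sides of all others, with mouse 1 highest and mouse 2 lowest of the 6. The means were 10.94 ± 0.01, 11.10 ± 1.14 and 11.46 ± 0.26 (SD, n = 2 each) in RANKL, ENRI and WENRC. With all 6 libraries in the fit no comparison called Epha2, and its direction against ENRI rested on a single library. RANKL minus ENRI was -0.16 (interval -1.36 to 1.05, limma FDR 0.847), 0.65 without ENRI mouse 1 (limma FDR 0.0225) and -0.96 without ENRI mouse 2 (limma FDR 0.00751). WENRC minus ENRI was 0.36 (interval -0.84 to 1.57, limma FDR 0.672), 1.17 without ENRI mouse 1 (limma FDR 0.00222) and -0.44 without ENRI mouse 2 (limma FDR 0.13). RANKL minus WENRC was -0.52 (interval -1.73 to 0.69, limma FDR 0.540), and these libraries did not overlap. This difference was called with only the 4 RANKL and WENRC libraries (limma FDR 0.0295) and in the authors' deposited table (-0.62).

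Of the ligands, Efnb2 encodes ephrin-B2, a transmembrane ligand of EphB receptors (NM_010111, mm9 chr8:8617439-8660773, minus strand). Its values were 11.32 and 11.33 in RANKL, 12.11 and 12.65 in ENRI, and 10.73 and 10.74 in WENRC. ENRI was highest, RANKL between and WENRC lowest, with no overlap, the reverse of the Ephb2 order. The means were 11.32 ± 0.00, 12.38 ± 0.39 and 10.73 ± 0.01 (SD, n = 2 each) in RANKL, ENRI and WENRC. Efnb2 was lower in WENRC than in ENRI, with a difference of -1.64 (SE 0.20, interval -2.14 to -1.15, limma FDR 0.0110), 3.12-fold on this scale. It was also lower in RANKL than in ENRI, by -1.05 (SE 0.20, interval -1.55 to -0.56, limma FDR 0.0192). RANKL minus WENRC was 0.59 (SE 0.20, limma FDR 0.118) and was not called.

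Efna1 encodes ephrin-A1, a lipid-anchored ligand of EphA receptors (NM_001162425, mm9 chr3:89075652-89084873, minus strand). Its values were 8.81 and 8.78 in RANKL, 11.07 and 12.19 in ENRI, and 9.55 and 9.60 in WENRC. ENRI stood far above both other cultures and RANKL was lowest, with no overlap. The means were 8.79 ± 0.02, 11.63 ± 0.79 and 9.57 ± 0.03 (SD, n = 2 each) in RANKL, ENRI and WENRC. The difference RANKL minus ENRI was -2.84 (SE 0.34, interval -3.68 to -2.0, limma FDR 0.00544), 7.15-fold on this scale and the largest of the 7 tested genes in the 3 comparisons. WENRC minus ENRI was -2.06 (SE 0.34, interval -2.90 to -1.22, limma FDR 0.0192). RANKL minus WENRC was -0.78 (interval -1.62 to 0.06, limma FDR 0.196) and was not called.

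Enterocyte markers, summed over 9 genes, were at log2 15.7 to 16.4 in ENRI, 14.6 to 14.8 in RANKL and 12.3 to 13.3 in WENRC. Gene by gene, 6 of the 9 had the Efnb2 order of means (Alpi, Apoa1, Apoa4, Fabp1, Sis and Vil1) and 3 had the Efna1 order (Fabp2, Lct and Rbp2). Stem cell markers, summed over 6 genes, were at 14.2 in both WENRC libraries, 13.5 to 13.6 in RANKL and 12 to 12.6 in ENRI. Of these 6, 5 had the Ephb2 order of means and 1, Olfm4, had the Ephb3 order. Goblet cell markers were at 13.6 in RANKL, 13.3 to 13.8 in ENRI and 10.8 to 11.9 in WENRC, summed over 6 genes. Of these 6, 4 (Agr2, Clca1, Muc2 and Tff3) also had the Efnb2 order of means, so this order was not particular to enterocyte markers. Fcgbp and Spdef were highest in RANKL. Mesenchymal markers were at 9.26 to 9.31 in RANKL and 6.81 to 7.84 in the other cultures, with 6 of 7 below the level for testing and Pdgfrb above it. That sum was nearly all Pdgfrb, at 9.21 and 9.26 in RANKL. Of the 7, only Pdgfrb and Dcn had their highest mean in RANKL. Leukocyte markers were at 7.59 to 8.11 over all libraries. None of the listed markers was at 0 in all libraries. Their part in the values of the receptors and ligands was not tested.

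**Figure D1:**
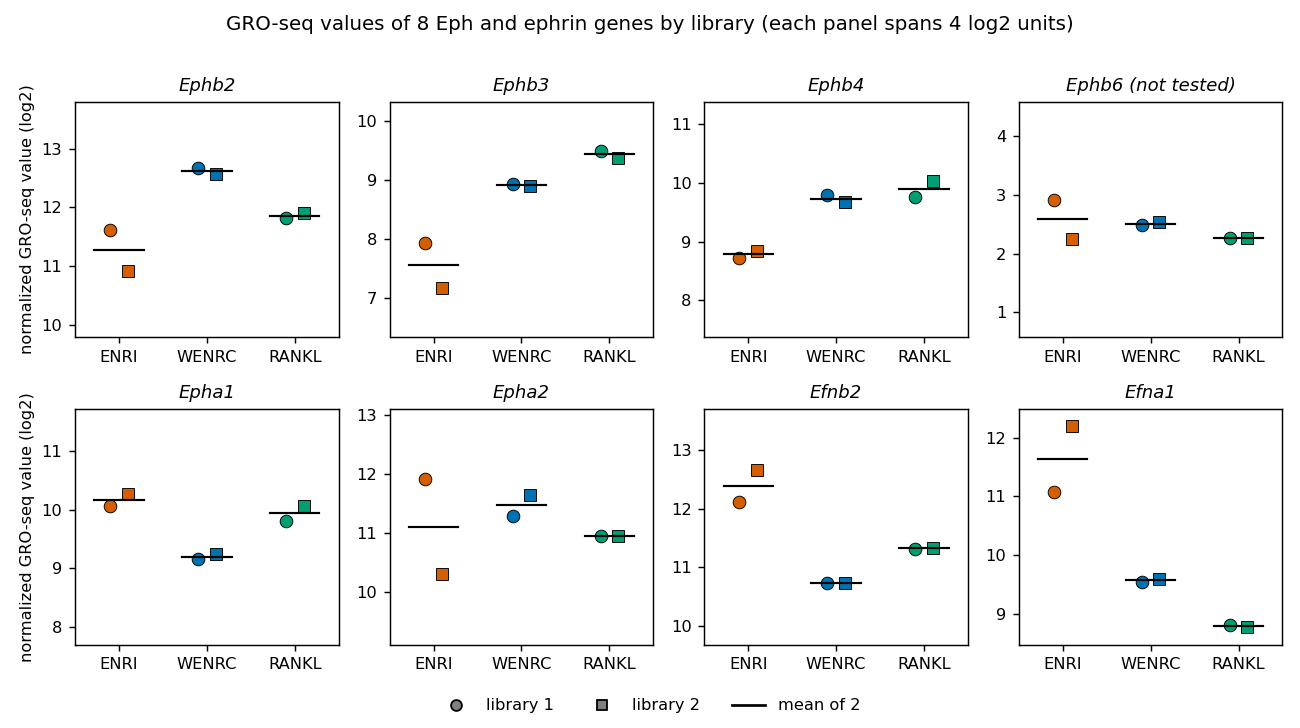
Deposited log2 values of the 8 genes in each of the 6 GRO-seq libraries, by culture. Ephb2, Ephb3 and Ephb4 are lowest in both ENRI libraries, Efnb2 and Efna1 are highest there, and the Epha2 values of ENRI lie on both sides of all others.

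The first comparison set the culture labelled stem cell against the one labelled enterocyte, both from the same 2 mice. In WENRC the receptors Ephb2, Ephb3 and Ephb4 were higher than in ENRI, and the receptor Epha1 and the ligands Efnb2 and Efna1 were lower. These were 6 of the 7 genes tested, 3 higher and 3 lower, where 14.6% of all genes tested were called, 4.85% higher and 9.74% lower. The median change was 0.36 over the 7 genes and -0.01 over all genes. In 6 of the 7 the libraries of both cultures did not overlap, against 58.5% of all genes. Because the libraries of these 6 did not overlap, each necessarily changed the same way in both mice, which is no further support. WENRC minus ENRI in mouse 1 and mouse 2 was 1.06 and 1.64 for Ephb2, 0.99 and 1.73 for Ephb3, and 1.06 and 0.84 for Ephb4. It was -0.90 and -1.02 for Epha1, -1.38 and -1.91 for Efnb2, and -1.52 and -2.59 for Efna1. Mouse 2 had the larger difference in 5 of these 6 genes, all but Ephb4.

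These calls changed with the set of libraries fitted. With the 4 ENRI and WENRC libraries alone, limma called 0 of the 7 genes (6 had an unadjusted p under 0.05, with FDR of 0.0649 to 0.0924), and 0% of all genes. With the mouse as a replicate block in those 4 libraries it also called 0 (6 at an unadjusted p under 0.05, FDR 0.0646 to 0.0893), where 0.749% of all genes were called. Leaving out RANKL replicate 1 or 2, or WENRC mouse 1 or 2, likewise left 0 calls and 6 genes at an unadjusted p under 0.05, where at most 0.235% of all genes were called. Without ENRI mouse 1 all 7 were called, where 40.1% of all genes were. Without ENRI mouse 2 the differences of the 6 genes kept their directions, at 1.0 for Ephb2, 0.98 for Ephb3, 1.0 for Ephb4, -0.86 for Epha1, -1.37 for Efnb2 and -1.50 for Efna1. The authors' deposited table called the same 6 genes, where it called 12.5% of all genes. With all 6 libraries, these 6 were also called under the other scalings and filters, without the variance trend and with the replicate block. In these fits 1506 to 3159 genes were called in all.

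The next comparison set the culture labelled M cell against the one labelled enterocyte. It shares the ENRI libraries with the first. Ephb3 and Ephb4 were higher in RANKL than in ENRI, and Efna1 and Efnb2 were lower. These were 4 of 7 genes, 2 higher and 2 lower, where 20.9% of all genes tested were called, 10.4% higher and 10.5% lower. The median change was -0.16 over the 7 and -0.0048 over all genes. In 6 of 7 the libraries did not overlap, against 64.7% of all genes, though for Epha1 the gap between both cultures was only 0.0018. Ephb2 and Epha1, called between WENRC and ENRI, were not called here, and whether the 2 comparisons differ in them is the RANKL and WENRC comparison below. The authors' deposited table called the same 4, with changes of -3.39 for Efna1, 2.23 for Ephb3, 1.31 for Ephb4 and -1.23 for Efnb2, where it called 19.6% of all genes.

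Single libraries changed this count as well. Without RANKL replicate 1 or without RANKL replicate 2, limma called 0 of the 7, with 4 at an unadjusted p under 0.05, where it called 0.67% and 0.386% of all genes. Without ENRI mouse 1 it called 6, Ephb2 and Epha2 among them, where it called 42.1% of all genes. Without ENRI mouse 2 it called 5, Epha2 among them, where it called 26.8% of all genes. Efnb2 lost its call without WENRC mouse 1 (limma FDR 0.051), without WENRC mouse 2 (0.0505) and with only the 4 libraries compared (0.0514), which left 3 genes called where 11.6% of all genes were called.

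The last comparison set RANKL against WENRC and shares libraries with both others. Epha1 was the 1 gene of 7 called, higher in RANKL by 0.73 (interval 0.36 to 1.11), where 12.1% of all genes tested were called, 8.53% higher and 3.62% lower. Ephb2, Efna1 and Epha2 had lower means in RANKL, and Ephb3, Efnb2 and Ephb4 higher means, without a call. In 6 of 7 the libraries did not overlap, against 68.6% of all genes, and Ephb4 was the exception. The median change was 0.17 over the 7 and -0.0073 over all genes. The Epha1 call did not hold under quantile normalisation (limma FDR 0.0528), under recentring on the upper quartile (0.0534), without RANKL replicate 1 (0.163) or 2 (0.29), or without WENRC mouse 1 (0.164) or 2 (0.148).

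The count rose when ENRI libraries were left out of the fit. With only the 4 RANKL and WENRC libraries, limma called 6 of the 7 genes, where it called 31.4% of all genes. The FDR was then 0.00187 for Efna1, 0.0032 for Ephb2, 0.005 for Efnb2, 0.0113 for Ephb3 and 0.0295 for Epha2, the directions being those above. Leaving out ENRI mouse 1 or mouse 2 also gave 6 calls, where 31.1% and 31.3% of all genes were called. The authors' deposited table called the same 6, where it called 27.8% of all genes, with changes of -0.87 for Ephb2, -0.93 for Efna1, -0.62 for Epha2, 0.66 for Efnb2, 0.62 for Ephb3 and 0.86 for Epha1. Scaling also moved the split of calls over all genes. RANKL-higher calls were 70.2% as deposited and 53.3% after upper quartile recentring, and WENRC-higher calls against ENRI were 33.2% and 54.1%. That recentring moved the median of all genes from -0.01 to -0.12 in RANKL against WENRC and from -0.01 to 0.10 in WENRC against ENRI.

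**Figure D2:**
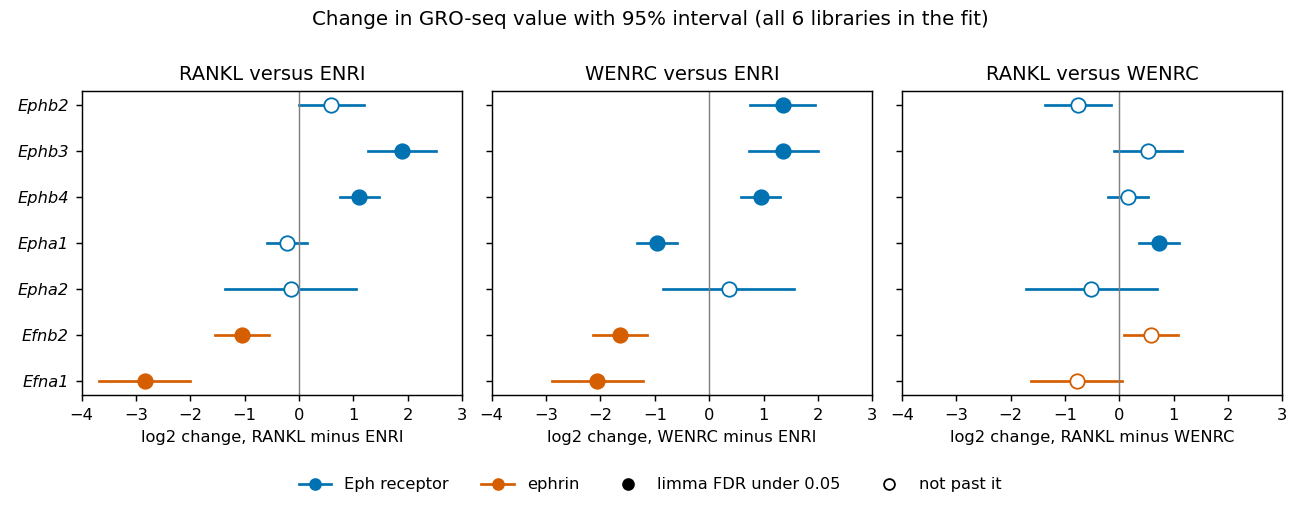
Log2 change with its 95% limma interval for the 7 tested genes in the 3 comparisons. The intervals of Ephb3, Ephb4, Efnb2 and Efna1 lie off 0 against ENRI in both comparisons, and those of Epha2 include 0 in all 3.

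Levels between genes were compared per kb of gene length, averaged over all 6 libraries on the log2 scale. Efna1 was highest at 6.80 log2 per kb, followed by Epha2 at 6.35, Efnb2 at 6.04, Epha1 at 5.88, Ephb4 at 4.86, Ephb3 at 4.43 and Ephb2 at 4.36, with Ephb6 far below at -1.46. Ephb2, whose summed value was the highest of the receptors, came next to last because it is the longest of the 8 genes at 188471 bp. The order differed between cultures. In ENRI it was Efna1 at 8.43, Efnb2 at 6.94, Epha2 at 6.28, Epha1 at 6.27, Ephb4 at 4.17, Ephb2 at 3.71 and Ephb3 at 3.34 log2 per kb, so that both ligands led and the EphB receptors came last. Neighbouring pairs from Efnb2 down, other than Epha1 and Ephb4, were closer there than the larger SD of each pair. In WENRC the order was Epha2 at 6.65, Efna1 at 6.37, Epha1 at 5.31, Efnb2 at 5.30, Ephb4 at 5.12, Ephb2 at 5.06 and Ephb3 at 4.71. The neighbours Epha1 and Efnb2 did not differ there beyond the SD of Epha1, nor Ephb4 and Ephb2 beyond the SD of either. In RANKL the order was Epha2 at 6.13, Epha1 at 6.05, Efnb2 at 5.89, Efna1 at 5.59, Ephb4 at 5.29, Ephb3 at 5.23 and Ephb2 at 4.30, with Epha2 and Epha1, Epha1 and Efnb2, and Ephb4 and Ephb3 closer than the larger SD of each pair. Ephb2 minus its ligand Efnb2 per kb was -0.17 and -0.30 in WENRC, -1.62 and -1.55 in RANKL, and -2.61 and -3.85 in ENRI. The receptor and the ligand were thus closest in WENRC and farthest apart in ENRI. Epha2 minus Efna1 per kb was -0.78 and -3.51 in ENRI, against 0.12 and 0.44 in WENRC and 0.52 and 0.56 in RANKL, so the ligand exceeded the receptor only in the ENRI libraries of the 6.

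**Figure D3:**
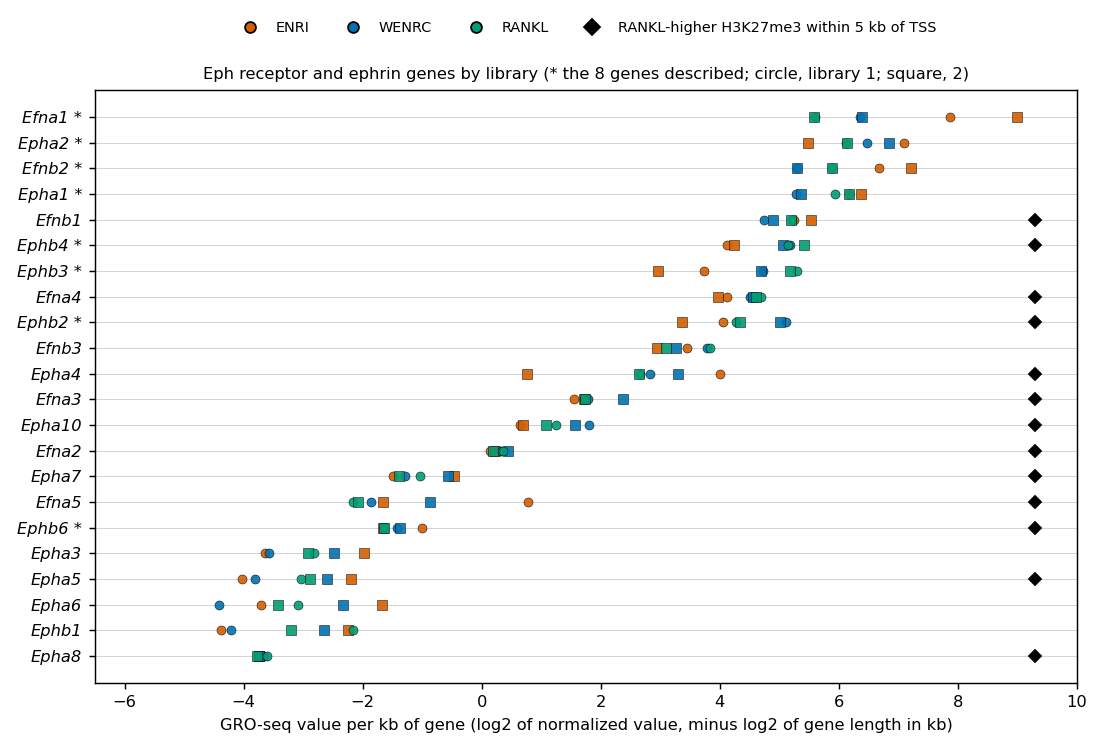
Log2 value per kb of gene length in each of the 6 libraries for the 22 Eph receptors and ephrins of the table, ordered by their mean, with the culture in colour and a diamond at the 13 genes with a RANKL-higher H3K27me3 region within 5 kb of the start. Both ENRI points of Efna1 lie above all others, and Epha8 has the lowest mean at -3.72.

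The 14 other family members were mostly lower. Epha8 did not reach the level for testing, with values of 1.0 to 1.17. Epha3, Epha5, Epha6, Epha7, Ephb1 and Efna5 had mean levels below 0 on the log2 per kb scale, from -3.14 for Ephb1 to -1.04 for Epha7. Efnb1, the other main intestinal ephrin-B, was at 5.13 log2 per kb, Efna4 at 4.41, Efnb3 at 3.40, Epha4 at 2.70, Efna3 at 1.81, Epha10 at 1.17 and Efna2 at 0.28. Of the 13 tested, limma called Epha10 alone, 1.01 higher in WENRC than in ENRI (SE 0.19, limma FDR 0.0247), where 14.6% of all genes tested were called. Epha10 overlaps 1700125G02Rik on the other strand. Between RANKL and ENRI limma called 0 of 13, where it called 20.9% of all genes tested. Of the 13, 2 were at an unadjusted p under 0.05, and the smallest p was for Efna4 (0.60, limma FDR 0.0556). The authors' deposited table called 1 there, Efna5, at -3.03, where it called 19.6% of all genes. For RANKL against WENRC, limma and the authors' table called 0 of 13, where they called 12.1% and 27.8% of all genes. In limma 2 were at an unadjusted p under 0.05, and the smallest p was for Epha10 (-0.52, limma FDR 0.136). Epha4 and Efna5 differed widely between the ENRI libraries, with 11.21 and 7.96 for Epha4 and 8.90 and 6.46 for Efna5 in mouse 1 and mouse 2.

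Each called gene was set beside the 3 tested genes nearest to it in profile, by the root mean square of the log2 difference over the 6 libraries after centring each gene. For Ephb2 these were Iars (isoleucyl-tRNA synthetase) at 0.0587, Trip13 (a chromosome-checkpoint ATPase) at 0.0649 and Alg8 (a glycosylation enzyme) at 0.0782. For Ephb3 they were Bcl7a (a chromatin remodelling subunit) at 0.107, Cdc25b (a cell cycle phosphatase) at 0.120 and Srsf7 (a splicing factor) at 0.124. For Ephb4 they were the non-coding Gm10684 at 0.0700, Ncapd2 (a condensin subunit) at 0.0766 and Shmt1 (a folate cycle enzyme) at 0.0768. Epha1 lay nearest to H2-L, a histocompatibility gene with close copies whose reads may be split, at 0.0472, then to Lmbr1l at 0.0712 and Pcmtd2 at 0.0756. Efnb2 lay nearest to Plekho2 at 0.0648, Rhebl1 at 0.0735 and Tbcel at 0.0929. Efna1 had the widest distances, to Tmem252 at 0.115, Mt1 (metallothionein) at 0.158 and 6430710C18Rik at 0.162. This distance grows with the size of the changes, and Efna1 values spanned 3.41 over the 6 libraries. By Pearson correlation over the same libraries, Efna1 and Tmem252 were at 0.997. By comparison, Ephb2 and Ephb3 were 0.614 apart, Ephb2 and Ephb4 0.448, and Ephb3 and Ephb4 0.424. None of the 3 EphB genes was among the 3 nearest of another.

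Downstream of the receptors, 26 adaptors, kinases and exchange factors were tested. Between RANKL and ENRI 5 were called higher and 3 lower, where 10.4% and 10.5% of all genes tested were. The list median was 0.17. Tiam1, a Rac exchange factor, was 1.09 higher (limma FDR 0.00607), Nck2, an adaptor, 0.83 higher (0.0189), Inppl1, a lipid phosphatase, 0.81 higher (0.0136), and Sdcbp, the scaffold syntenin, was at -0.64 (0.0194). Inppl1 overlaps Phox2a. Against WENRC, RANKL had 6 called higher and 2 lower, where 8.53% and 3.62% of all genes tested were. The list median was 0.00. Kalrn, an exchange factor, was 2.26 higher in RANKL (limma FDR 0.00727), Vav2, another, 1.09 higher (0.0108), Src, a kinase, 0.90 higher (0.0134), and Fyn, a kinase of the same family, was at -1.65 (0.00606). Between WENRC and ENRI 2 were called higher and 2 lower, where 4.85% and 9.74% of all genes tested were. The list median was -0.02. Tiam1 was 1.64 higher in WENRC (limma FDR 0.0063) and Fyn 1.41 higher (0.0116), whereas Kalrn was at -1.92 (0.0133) and Sdcbp at -0.63 (0.0275). Tiam1 was thus called higher in both comparisons against ENRI, which share the ENRI libraries.

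Of 6 shedding and adhesion partners, 1 was called, and only between RANKL and ENRI, where 20.9% of all genes tested were called. Adam10, a protease known to cleave ephrins, was 0.70 higher in RANKL than in ENRI (limma FDR 0.0413). For RANKL against WENRC limma called 0 of the 6, where 12.1% of all genes tested were called. The 1 at an unadjusted p under 0.05 was Adam10 (0.52, limma FDR 0.115). The authors' deposited table called 4 of the 6, where it called 27.8% of all genes. Between WENRC and ENRI neither limma nor the authors' table called any of the 6, where they called 14.6% and 12.5% of all genes. In limma 0 were at an unadjusted p under 0.05, and the smallest p was for Ctnnd1 (-0.42, FDR 0.164). The list medians were 0.21, 0.27 and 0.09 in RANKL against ENRI, RANKL against WENRC and WENRC against ENRI.

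Of 13 other Wnt targets of the crypt tested, 6 were called higher and 0 lower in WENRC than in ENRI. Of all genes tested, 4.85% were called higher and 9.74% lower there. The list median was 1.22. Lgr5, the stem cell receptor for R-spondin, was 3.12 higher, Axin2, a Wnt feedback inhibitor, 2.95, Tnfrsf19, a receptor of crypt stem cells, 2.89, and Nkd1, another feedback inhibitor, 2.41, with limma FDR of 0.00487, 0.00624, 0.0064 and 0.00842. Lgr5 overlaps A930009A15Rik and is also among the stem cell markers. Between RANKL and ENRI 4 were called higher and 1 lower, where 10.4% and 10.5% of all genes tested were. The list median was 0.89. Tnfrsf19 was 4.58 higher, Axin2 3.12 and Nkd1 2.16, and Sp5, a Wnt-induced transcription factor, was at -1.66. Against WENRC, RANKL had 1 called higher and 2 lower, where 8.53% and 3.62% of all genes tested were. The list median was -0.09. Lgr5 was at -3.02 and Sp5 at -1.42, and Tnfrsf19 was 1.69 higher in RANKL. Of 6 nuclear factors of the pathway, Bcl9, a beta-catenin cofactor, was 1.34 higher in RANKL than in ENRI (limma FDR 0.0182). Tcf7l2, the main intestinal TCF, was 1.25 higher in RANKL than in WENRC (limma FDR 0.0268). No other of the 6 was called in either comparison, where 20.9% and 12.1% of all genes tested were called. Between WENRC and ENRI limma and the authors' table called 0 of these 6, where they called 14.6% and 12.5% of all genes. In limma 3 were at an unadjusted p under 0.05, with Bcl9 having the smallest p (0.94, FDR 0.0581). The medians of the 6 were 0.23, 0.46 and -0.36 in RANKL against ENRI, RANKL against WENRC and WENRC against ENRI.

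H3K27me3 was then read near the same genes. The authors called regions of one culture with the other as control, so each of their 2 tables holds 1 direction, 35798 RANKL-higher and 13607 WENRC-higher regions. RANKL was pooled and WENRC was 1 library, so there is no replicate check, and the folds, tags and p-values are the authors' own. Within 5 kb of a start, RANKL-higher regions lay at 3 of the 8 genes (Ephb2, Ephb4 and Ephb6), where 19.1% of all genes in the transcription table had one. WENRC-higher regions lay within 5 kb of 0 of the 8, where 5.44% of all genes had one. In the whole family, 13 of 22 genes had a RANKL-higher region within 5 kb, 10 of them among the 14 other members, and 0 of 22 had a WENRC-higher one. The folds of these 23 regions ran from 2.07 to 6.66. The 9 genes without one were Ephb3, Epha1, Epha2, Efna1 and Efnb2 of the 8, and Epha3, Epha6, Ephb1 and Efnb3.

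Ephb2 had the broadest region. It spanned chr4:136388330-136393673 in mm9, 5343 bp from 1746 bp upstream to 3597 bp downstream of the start, annotated to intron 1. It held 221 RANKL tags against 46.8 scaled WENRC tags, a fold of 4.72 (authors' p 1.66e-75). By length it ranked 142 of 35798 RANKL-higher regions, so that 99.6% were shorter, against a median length of 500 bp. A second region of 728 bp lay at chr4:136394482-136395210, 3283 to 2555 bp upstream, with 27 tags against 5.4, a fold of 5.0. Ephb2 transcription was 0.76 lower on the log2 scale in RANKL than in WENRC by the means (RANKL minus WENRC -0.76), a difference not called with all 6 libraries.

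Ephb4 had a RANKL-higher region of 500 bp at chr5:137790347-137790847, 990 to 490 bp upstream of its start, with 23 tags against 3.6, a fold of 6.39. Its transcription values overlapped between RANKL and WENRC. At Ephb6 a region of 1365 bp at chr6:41554273-41555638 covered the start, with 62 tags against 19.8, a fold of 3.13, and the gene was close to silent in both cultures. The region assigned to Efna1, chr3:89090473-89090973, lay 6100 to 5600 bp upstream, with 20 tags against 2.7, a fold of 7.41. Ephb3 had no region in either table, and neither had Epha1 or Epha2. The tables hold only regions that differ between the cultures, so H3K27me3 at a similar level in both would not be seen.

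Efnb2 had the largest number of regions and none near the gene. Of the RANKL-higher regions 8 carried its name, 479721 to 1774141 bp from its start, and of the WENRC-higher regions 13, at 183004 to 785582 bp. All were intergenic and lay downstream of the gene. The highest fold was 20.7, in a WENRC-higher region at chr8:8374486-8374986 with 20.7 scaled WENRC tags against 1 RANKL tag. The name was given by the nearest start, and which gene these regions act on was not tested. Counted by overlap with the gene as listed, 2 RANKL-higher regions, at Ephb2 and Ephb6, and 0 WENRC-higher regions remained of 13 each.

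**Figure D4:**
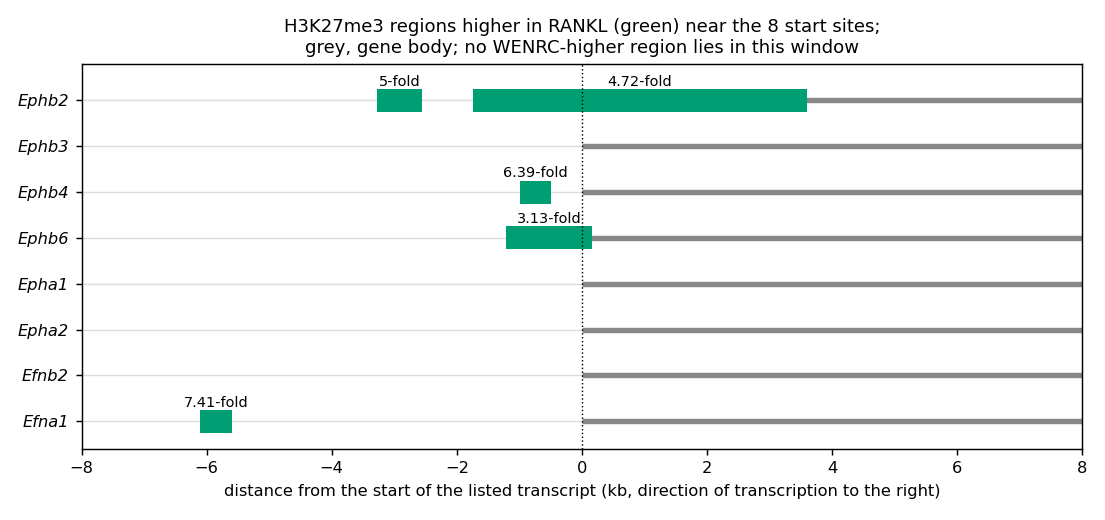
H3K27me3 regions around the starts of the 8 genes, as distance from the start in the direction of transcription, with the authors' fold. Regions higher in RANKL lie at Ephb2, Ephb4 and Ephb6, the broadest, at Ephb2, covering 5343 bp. One more lies 6100 to 5600 bp upstream of Efna1. No region higher in WENRC lies within 5 kb of any of the 8 starts.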

How the data were processed

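GRO-seq values cover 6 libraries, and H3K27me3 was compared between 2 cultures. Per the submitters' processing notes, reads were processed with Bowtie2 2.3.4.1, HOMER and DESeq2 on mm9. The authors deposited log2 values per RefSeq gene, summed over whole genes with HOMER per the file headers, with their own log2 fold changes, p-values and adjusted p-values, whose sign was turned to first minus second culture. The transform behind the log2 values is not named in the headers. It draws low genes together, so changes of low genes are understated. The headers name the RANKL libraries as combined re-sequenced reads, and the ENRI and WENRC libraries carry 2 dates, 1 library per culture and date, so mouse and date, and RANKL and its sequencing, cannot be told apart. The H3K27me3 tables are deposited HOMER regions of one culture against the other, annotated on mm9, with tag signal, a fold ratio and a p-value per region. RANKL tags per region were deposited as a count over the 2 pooled libraries, and the deposited peak score was not used. ChIP-seq depth was 32.7 M tags in RANKL and 36.3 M in WENRC, whose tags the authors scaled by 0.9.

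Genes at 0 in all 6 libraries (2131) were left out. limma 3.58.1 in R 4.3.3, with a variance trend, was fitted to all 6 libraries as 3 culture means, without a block, over 16563 genes with at least 2 libraries at log2 of 10, and was tested on simulated data. The ENRI and WENRC libraries with the same number come from the same mouse per the labels (their deviations from the culture means correlated at 0.414 across genes). RANKL replicate numbers tie to no mouse (-0.205 with ENRI, -0.323 with WENRC). Alternatives were other scalings, filters, libraries, a replicate block and the authors' calls. Members, gene lists and tests were chosen with earlier results of these data known. Named were the 8 genes, up to 4 called genes with the smallest p per list and comparison or else the gene with the smallest p, each other Eph receptor and ephrin, and the 3 nearest profiles of each called gene. One list of downstream effectors is not reported here. Blank rows of the WENRC-higher regions (12) were dropped.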

Additional observations from a re-analysis of the deposited data

How the results depend on the processing

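Over all genes, the calls between RANKL and ENRI went from 3464 to 1925 with only the 4 libraries compared, and from 64 to 6966 when 1 library was left out. Between RANKL and WENRC they went from 2012 to 5194 with 4 libraries and to 4604 in the authors' deposited table, and from 0 (2702 and 2486 at an unadjusted p under 0.05, without RANKL replicate 1 or 2) to 5176 when 1 library was left out. Between WENRC and ENRI they went from 2416 to 0 with 4 libraries (4074 at an unadjusted p under 0.05), to 1506 with the replicate block over all 6 libraries, to 124 with the block by mouse in 4 libraries, and from 0 to 6650 when 1 library was left out.

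Of the 7 genes tested, the count called between RANKL and ENRI went from 4 to between 0 and 6 when 1 library was left out. Between RANKL and WENRC it went from 1 to 0 after upper quartile recentring (2 at an unadjusted p under 0.05), to 6 with 4 libraries, to 6 in the authors' table, and to between 0 and 6 when 1 library was left out. Between WENRC and ENRI it went from 6 to 0 with 4 libraries (6 at an unadjusted p under 0.05), to 0 with the replicate block by mouse in those 4 libraries, and to between 0 and 7 when 1 library was left out. The block over all 6 libraries kept the count at 6. Ephb2 between RANKL and WENRC was called after quantile normalisation, at -1.36 (limma FDR 0.019). Directions reversed for Epha2 between RANKL and ENRI (0.65 without ENRI mouse 1, -0.96 without mouse 2), Epha2 between WENRC and ENRI (-0.44 without ENRI mouse 2, 1.17 without mouse 1) and Ephb4 between RANKL and WENRC (-0.018 after quantile normalisation), and no other direction of the 7 genes reversed under the alternatives run. Fewer libraries leave fewer residual degrees of freedom, and the counts fell in some of these fits and rose in others. The SD of the difference between both libraries of a culture was 0.699 in ENRI, 0.421 in WENRC and 0.220 in RANKL. What part either had in the counts was not tested.

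RANKL-higher H3K27me3 regions named for the 8 genes were 13 in all, 7 at a fold of at least 4, 4 within 5 kb of the start, 2 overlapping the gene and 1 with most of its length inside it. WENRC-higher ones were 13, and 0 within 5 kb, 0 overlapping and 0 with most of their length inside.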
